A study of Medicago truncatula and Hordeum vulgare with 90 samples.

Results

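In barley (Hordeum vulgare) roots, 200 genes of the 87541 rows of the count table formed the set described here: genes that were higher in wild-type plants without nitrate and stayed level in wild-type plants without phosphate. They were chosen by their measured values in wild-type libraries, so that pattern is a description and was not tested. Of rows with identical counts the first was kept, values were counts scaled to library size with edgeR's TMM factors (CPM), and a gene needed a mean of at least 0.5 CPM in any wild-type group. For each regime, L was the log2 ratio of its wild-type mean to the +P+N mean after 0.1 CPM was added to both. Genes with L of at least 1 at +P-N and L between -0.58 and 0.58 at -P+N were kept, and the 200 with the largest L at +P-N were taken. Of 32135 genes over the minimum, 2282 (7.10%) had L of at least 1 at +P-N, and 664 of these also stayed level at -P+N. The member just inside the limit, chr5Hg0577741, had L of 1.53, as had chr1Hg0068341 just outside it, and for the level criterion chr7Hg0796091 lay just inside with L of 0.58 at -P+N and chr6Hg0636231 just outside with -0.58. Of the members, 10 passed the minimum only through wild-type -P-N libraries.

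The study asked how nitrate and phosphate supply act on root gene expression through NSP1 and NSP2. RNA was taken from whole roots at 21 days in wild-type Golden Promise (GP), in the nsp1-1 and nsp2-1 mutants made in GP (here nsp1 and nsp2), and in 2 lines carrying a FLAG-tagged Medicago truncatula gene. Plants were grown in sharp sand and fed a modified BNM solution with phosphate and nitrate (+P+N), without nitrate (+P-N), without phosphate (-P+N) or without either (-P-N). GP, nsp1 and nsp2 were sampled in all 4 regimes, and the overexpression lines MtNSP1ox (maize ubiquitin promoter) and MtNSP2ox (rice ubiquitin promoter) at +P+N only, with 3 libraries in each of the 14 groups. The labels do not say whether replicates were separate plants, so p-values measure the spread between these libraries, which may be technical.

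Roots take up nitrate with high-affinity and low-affinity transporters, reduce it to ammonium and build the ammonium into glutamine and other amino acids. When nitrate runs out, plants typically raise transcripts for uptake, remobilization and nitrogen signalling. NSP1 and NSP2 are GRAS-family transcription factors, known in legumes for their requirement in nodulation and in several plants for strigolactone synthesis and signalling with mycorrhizal fungi. No table used here pairs the barley identifiers with gene names (0 of 87541 matched), so members are given by identifier, and neither their functions nor a list of nitrogen genes, the mutated genes or root cell markers could be looked up.

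The 42 libraries held 64919199 to 213268063 counts. A group of 1368 genes whose share moved with the TMM factor took 62.5% to 92.8% of the counts, the highest share being in nsp1 -P-N replicate 1, and left 15294468 to 57673239 counts for all other genes. None of the 200 members was among those 1368 genes (0 of 200). Replicates of every group differed by more than sampling noise, and all were counted.

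In GP the members together were low with nitrate and several-fold higher without it. The summed CPM of the 200 genes was 295, 326 and 349 in the 3 GP +P+N libraries and 367, 369 and 383 at -P+N. It was 1542, 1584 and 1599 at +P-N and 1400, 1474 and 1529 at -P-N. Both groups without nitrate lay above both groups with it, with no overlap. In whole roots, more RNA per cell and more cells of a type cannot be told apart. L at +P-N ran from 1.53 to 8.40 with a median of 1.97, and 94 members had L of at least 2. The 3 libraries at +P-N were all above the 3 at +P+N for 193 of 200 members, where 29.9% of all genes over the minimum were. Most members were of low abundance: the median member had 0.39 CPM at +P+N and 1.99 CPM at +P-N, where 43 members reached 10 CPM. Without both nutrients 181 members had a log2 ratio to +P+N of at least 1, computed as for L (8.38% of all genes), 165 had such a ratio to -P+N (3.43%), and the median ratio of -P-N to +P-N was -0.24.

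**Figure D1:**
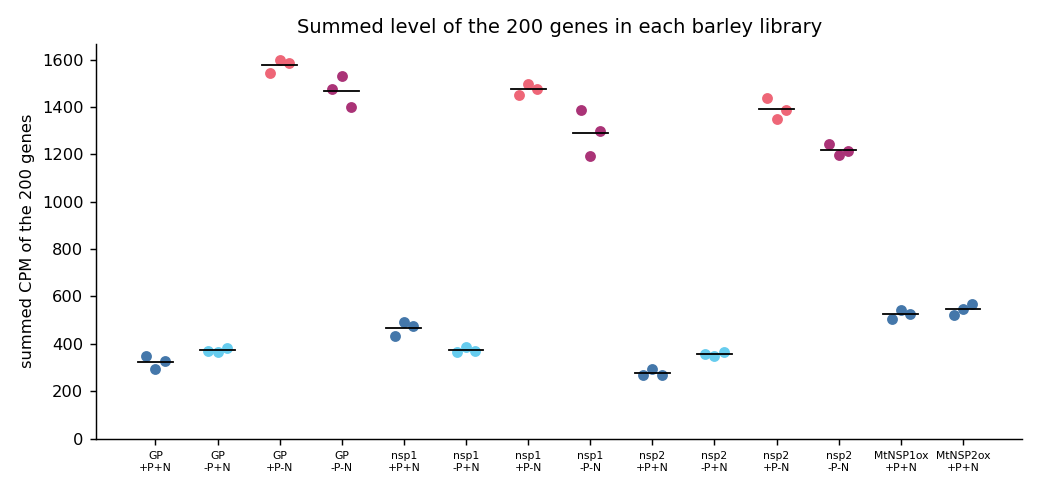
Summed CPM (linear axis) of the 200 genes in each of the 42 barley libraries, by genotype and regime; points are libraries and bars are means of 3. The libraries grown without nitrate lie at 1192 CPM or more and all others at 569 CPM or less.

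The largest change in GP belonged to chr7Hg0681791. Its CPM was 0.0586, 0.0163 and 0.0246 at +P+N and 0.0894, 0.0497 and 0.0733 at -P+N. It was 41.3, 47.1 and 46.7 at +P-N and 27.6, 30.5 and 21.5 at -P-N. It was near 0 wherever nitrate was supplied, with or without phosphate. The next by L was chr5Hg0465071, at 0.0098, 0 and 0 CPM at +P+N and 5.29, 6.09 and 5.76 CPM at +P-N. The most abundant member, chr3Hg0308861, was expressed under full supply too, at 15.1, 13.3 and 14.5 CPM, and stood at 97.3, 94.3 and 98.3 CPM at +P-N. Thus the members ranged from genes near 0 with nitrate to genes with a clear level that was raised. The gene chr3Hg0285481 had no count in any +P+N library of the 5 genotypes and 1.91, 1.7 and 1.78 CPM at GP +P-N.

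Both mutants, whose libraries the choice of members did not use, raised most members without nitrate. In nsp1, 187 of 200 members were higher at +P-N than at +P+N and 1 was lower, against 23.4% and 27% of the 46523 genes tested (edgeR's quasi-likelihood test, adjusted p under 0.05). In nsp2, 188 were higher and 0 lower, against 19.7% and 21.8% of genes. At an unadjusted p under 0.05, 0 members were lower in nsp2, and DESeq2 also called 0; leaving out nsp2 +P+N replicate 2 gave 2. The median log2 fold change of the members was 1.86 in nsp1 and 2.27 in nsp2, against -0.00 and 0.01 over all genes tested. Higher in both mutants were 183 members, against 14.8% of genes.

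In nsp1, chr7Hg0681791 had 0.0717, 0.139 and 0.115 CPM at +P+N and 39.6, 45.4 and 41.6 CPM at +P-N, and its fitted log2 fold change was 8.52 ± 0.13 (SE; adjusted p = 4.56e-15, edgeR). In nsp2 it went from 0.0278, 0.0094 and 0 CPM to 24, 19 and 20.9 CPM, so its 3 starved libraries all lay below those of nsp1. The abundant chr3Hg0308861 rose by a log2 fold change of 2.14 ± 0.07 in nsp1 (adjusted p = 2.04e-11, edgeR) and 2.84 ± 0.14 in nsp2 (adjusted p = 6.95e-07, edgeR). For chr3Hg0285481, without a count at +P+N, the fold against a floor of 3 counts per library was at least 75.8-fold higher in nsp1 and at least 61.4-fold higher in nsp2.

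Among the 12 members not called in nsp1 at +P-N were genes whose level within nsp1 was much the same with and without nitrate. One such gene was chr1Hg0070281, at 0.263, 0.94 and 0.592 CPM at +P+N and 0.556, 0.558 and 0.55 CPM at +P-N (log2 fold change -0.17 ± 0.30, adjusted p = 0.668, edgeR). Another was chr5Hg0529611, at 2.52, 2.63 and 2.94 CPM and then 2.46, 2.94 and 2.79 CPM (log2 fold change -0.04 ± 0.09, adjusted p = 0.782, edgeR). In GP at +P+N those genes had 0.0098 CPM or less and 1.48 CPM or less. The lower member, chr1Hg0082271, was picked out after its values were seen: it had 0.119, 0.267 and 0.248 CPM at +P+N and 0.0309, 0.0262 and 0.019 CPM at +P-N (log2 fold change -3.05 ± 0.49, adjusted p = 0.000128, edgeR).

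Nitrate withdrawal on top of phosphate withdrawal also raised most members in both mutants. The size of the response differed for many of them, by the interactions given further below. Without phosphate it was smaller for 80 members and larger for 11 in nsp2 (14.8% and 13.0% of genes). In nsp1 it was smaller for 55 and larger for 46 (14.8% and 14.5%). From -P+N to -P-N, 173 members rose in nsp1 and 0 fell (15.4% and 16.7% of genes), and 188 rose in nsp2 and 1 fell (16.4% and 20.0%). For nsp1 0 members fell at an unadjusted p under 0.05 and 0 by DESeq2, while leaving out nsp1 -P-N replicate 1, the library with the highest share of co-varying genes, gave 175 higher and 2 lower, and leaving out replicate 2 gave 1 lower. For nsp2, leaving out -P-N replicate 3 gave 2 lower. The median log2 fold change was 1.72 in nsp1 and 1.81 in nsp2, against 0.04 and 0.02 over all genes. Of the 200 members, 163 rose in all 4 of these comparisons within mutants and 3 were called in none, against 5.06% and 29.7% of all genes tested. In GP, 188 members had all 3 -P-N libraries above all 3 at -P+N, against 25.4% of genes, which shares libraries with the choice and is a description.

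The member that fell in nsp2 was chr1Hg0000461. It had 2.25, 2.08 and 1.88 CPM at -P+N and 1.42, 0.741 and 0.963 CPM at -P-N (log2 fold change -0.97 ± 0.19, adjusted p = 0.00261, edgeR). With phosphate it rose in nsp2 by 1.67 ± 0.13 and in nsp1 by 2.52 ± 0.10 on the log2 scale (adjusted p = 1.3e-05 and 8.56e-11, edgeR). The gene thus moved in opposite directions in nsp2 with and without phosphate. A run of neighbours, chr5Hg0466231 to chr5Hg0466251, was not called in either mutant at -P-N: chr5Hg0466231 had 0.632, 1.04 and 1.06 CPM in nsp1 at -P+N and 1.28, 0.367 and 0.592 CPM at -P-N.

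**Figure D2:**
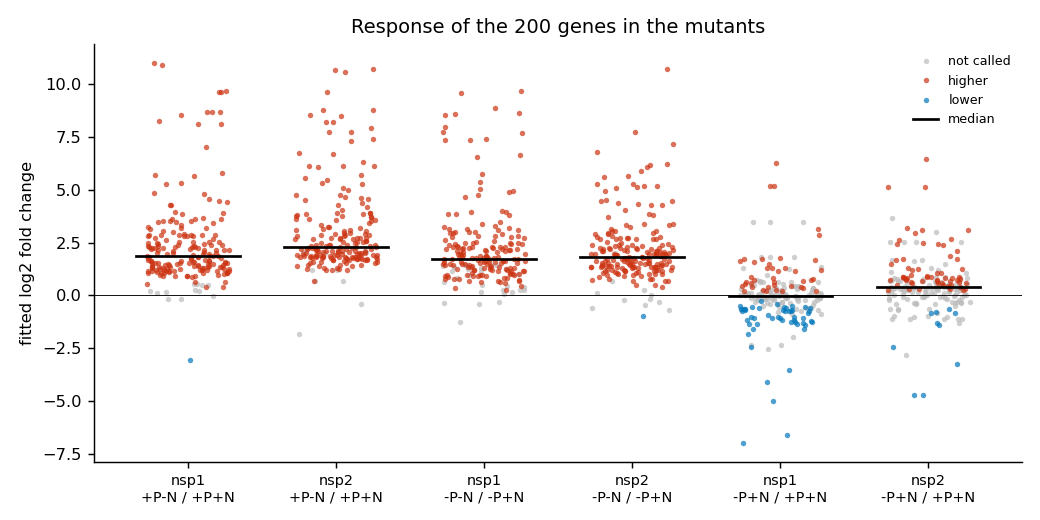
Fitted log2 fold change of each of the 200 genes in 6 comparisons within the mutants; points are genes, coloured by the call at an adjusted p of 0.05, and black bars are medians. The 4 nitrate comparisons have medians between 1.72 and 2.27, and the 2 phosphate comparisons -0.04 and 0.41.

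Phosphate withdrawal alone left the members level in GP by choice, and the mutants were tested for it. In nsp1, 41 members (20.5%) were higher and 51 (25.5%) lower at -P+N than at +P+N, against 20.2% and 17.7% of genes, so the share called higher was near that of all genes. In nsp2, 63 (31.5%) were higher and 10 (5%) lower, against 17.6% and 15.8%. Without nsp2 -P+N replicate 3 only 41 were higher, and the lower count was 6 without +P+N replicate 3, 6 without -P+N replicate 1 and 5 without -P+N replicate 2. Over all genes, 5961 were higher without nsp2 -P+N replicate 3, against 8167 with all libraries. The median log2 fold change was -0.04 in nsp1 and 0.41 in nsp2, against 0.01 and -0.03 over all genes. In neither mutant were 75 members called (51.5% of all genes), 25 were higher in both (12.2%) and 4 lower in both (9.79%).

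The strongest fall in nsp1 among members named by the rule was that of chr3Hg0303761, a gene near 0 in GP with nitrate (0.342, 0.098 and 0.319 CPM at +P+N). In nsp1 it had 7.84, 12.5 and 10.9 CPM at +P+N and 0.0395, 0.136 and 0.138 CPM at -P+N, and its fitted log2 fold change was -6.61 ± 0.25 (adjusted p = 5.7e-11, edgeR). Its raised level under full supply was thus absent without phosphate. In nsp2 both groups were low, at 0.0695, 0.0377 and 0.0445 CPM and then 0.0562, 0.0971 and 0.0659 CPM. The gene chr3Hg0317881 had 1.43, 3.12 and 2.69 CPM in nsp1 at +P+N and 0.257, 0.204 and 0.167 CPM at -P+N (log2 fold change -3.54 ± 0.28, adjusted p = 2.23e-07, edgeR). Among those that rose, chr1Hg0000461 went in nsp1 from 1.71, 2.24 and 1.7 CPM to 3.75, 4.96 and 3.94 CPM (log2 fold change 1.16 ± 0.12, adjusted p = 4.72e-06, edgeR).

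In nsp2, chr1Hg0096141 rose from 0.375, 0.754 and 0.245 CPM to 1.52, 1.96 and 1.79 CPM without phosphate, a log2 fold change of 1.88 ± 0.31 (adjusted p = 0.00172, edgeR). The gene chr3Hg0257481 rose from 1.5, 1.87 and 1.34 CPM to 3.58, 4.11 and 4.12 CPM (1.30 ± 0.13, adjusted p = 7.38e-05, edgeR). In the other direction, chr5Hg0553321 fell from 1.6, 1.87 and 1.68 CPM to 0.909, 1.04 and 0.947 CPM (-0.85 ± 0.12, adjusted p = 0.000747, edgeR) and chr3Hg0308881 from 3.24, 2.6 and 2.56 CPM to 1.79, 1.53 and 1.66 CPM (-0.77 ± 0.13, adjusted p = 0.00153, edgeR). In each of these 4 genes the groups did not overlap.

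More members were called between the mutants under full supply than without nitrate, as were more genes overall. At +P+N, 71 members were lower in nsp2 than in nsp1 and 5 higher, against 7.11% and 4.80% of genes, with a median log2 fold change of -0.58 (0.03 over all genes). Without nsp1 +P+N replicate 3, 46 were lower, and the count of higher members was 1 or 2 without any of the nsp1 replicates or without nsp2 replicate 3. Over all genes, 1811 were lower without nsp1 +P+N replicate 3, against 3309 with all libraries. At +P-N, 11 members were lower in nsp2 and 12 higher, against 1.13% and 0.709% of genes, with a median of -0.03. Here leaving out nsp1 replicate 1, nsp1 replicate 3 or nsp2 replicate 3 gave 5 higher, and leaving out nsp1 replicate 3 or nsp2 replicate 3 gave 5 or 6 lower. Over all genes, 132 were higher and 220 lower without nsp1 replicate 3, against 330 and 525 with all libraries. Of the 71 members lower at +P+N, 65 (91.5%) were not called at +P-N, close to the 92.5% of all genes lower at +P+N.

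The gene chr3Hg0303761 showed the widest fitted gap of the 200 at +P+N, from the nsp1 values above to those of nsp2 (log2 fold change -7.71 ± 0.28, adjusted p = 9.58e-07, edgeR). The gene chr3Hg0317881 had 0.153, 0.151 and 0.156 CPM in nsp2 against 1.43, 3.12 and 2.69 CPM in nsp1 (log2 fold change -3.98 ± 0.33, adjusted p = 6.47e-05, edgeR). A smaller gap was seen in chr2Hg0101411, at 3.14, 4.81 and 4.12 CPM in nsp2 and 9.12, 9.85 and 8.92 CPM in nsp1 (-1.21 ± 0.13, adjusted p = 0.000357, edgeR). At +P-N that gene had 61.4, 48.2 and 53.6 CPM in nsp2 and 67.5, 72 and 69.4 CPM in nsp1 (-0.34 ± 0.12, adjusted p = 0.232, edgeR), past the threshold with the co-varying genes left out (adjusted p = 0.0126, the lowest of 15 alternatives, the highest being 1). Lower in nsp2 than in nsp1 at +P-N were chr7Hg0681791 (-0.97 ± 0.10, adjusted p = 0.00153, edgeR) and chr1Hg0000461 (-0.96 ± 0.10, adjusted p = 0.00158, edgeR).

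**Figure D3:**
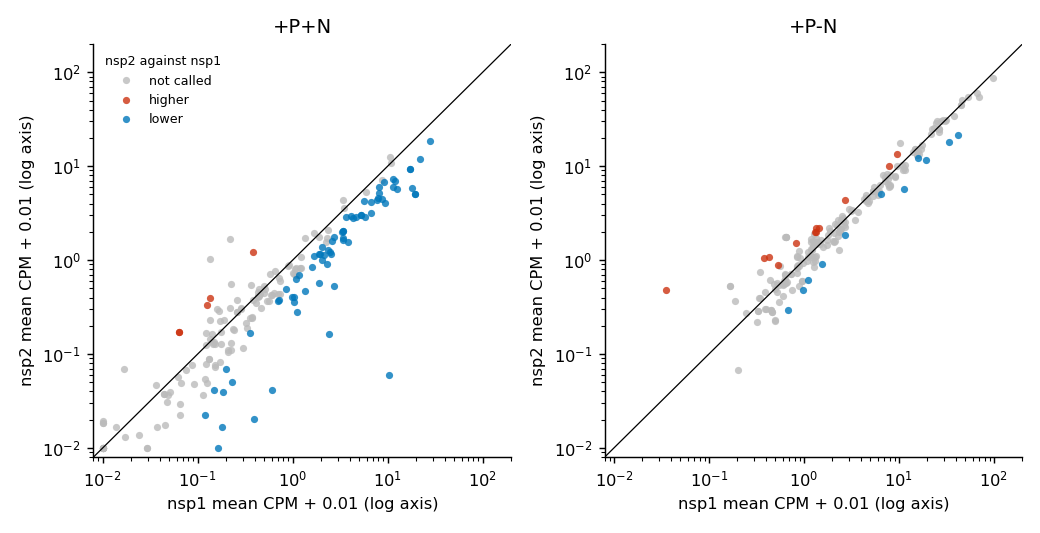
Mean CPM plus 0.01 of each of the 200 genes in nsp1 (x, log axis) and nsp2 (y, log axis) at +P+N and at +P-N, each a mean of 3 libraries; colours give the call of nsp2 against nsp1 and the line marks equal values. At +P+N 71 genes are called lower in nsp2, and at +P-N 11.

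Under full supply the summed level of the members in nsp1 lay between GP and the overexpression lines. Summed over the members, CPM at +P+N was 434, 475 and 491 in nsp1, 505, 525 and 544 in MtNSP1ox and 521, 547 and 569 in MtNSP2ox, all above the highest GP library (349), and 268, 269 and 296 in nsp2. The 71 members called lower in nsp2 than in nsp1 summed to 353 to 394 CPM in nsp1 and 219 to 266 CPM in GP. In nsp2 these members summed to 179 to 212 CPM, below GP. Their sums were 400 to 429 CPM in MtNSP1ox and 419 to 467 CPM in MtNSP2ox. That call used the nsp1 and nsp2 values. The other 129 summed to 80.5 to 96.9 CPM in nsp1, which overlapped GP (76.1 to 83.1 CPM). They summed to 105 to 115 CPM in MtNSP1ox and 102 to 104 CPM in MtNSP2ox. The number of members with a log2 ratio to GP of at least 1 was 27 in nsp1, 39 in MtNSP1ox, 44 in MtNSP2ox and 8 in nsp2, against 2.76%, 3.16%, 3.19% and 2.48% of genes. These ratios use the GP +P+N libraries whose low values chose the members, so they are described only. For chr3Hg0303761 the overexpression lines had 6.35, 10.5 and 7.86 CPM (MtNSP1ox) and 13.2, 13.9 and 17.2 CPM (MtNSP2ox), set beside 17.1, 19.4 and 19.6 CPM in GP at +P-N. By contrast chr7Hg0681791 stayed at 0.14 CPM or less in both lines.

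Between the overexpression lines 17 members were higher and 15 lower in MtNSP2ox than in MtNSP1ox, against 3.74% and 5.05% of genes, with a median log2 fold change of 0.03. The higher count was 7 without MtNSP1ox replicate 3, 8 without MtNSP2ox replicate 2 and 10 without MtNSP2ox replicate 3. Over all genes, 765 were higher without MtNSP1ox replicate 3, against 1742 with all libraries. The gene chr3Hg0303761 was higher in MtNSP2ox (0.86 ± 0.16, adjusted p = 0.00945, edgeR), a call lost without MtNSP1ox replicate 3 (0.83, adjusted p = 0.0522, the highest of 15 alternatives, the lowest being 0.000886). So was chr2Hg0141371, at 4.62, 5.29 and 5.63 CPM against 3.74, 3.37 and 3.95 CPM (0.50 ± 0.09, adjusted p = 0.00706, edgeR). The gene chr5Hg0553321 was lower, at 1.07, 1.2 and 1 CPM against 1.78, 1.85 and 1.96 CPM (-0.76 ± 0.11, adjusted p = 0.00292, edgeR).

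**Figure D4:**
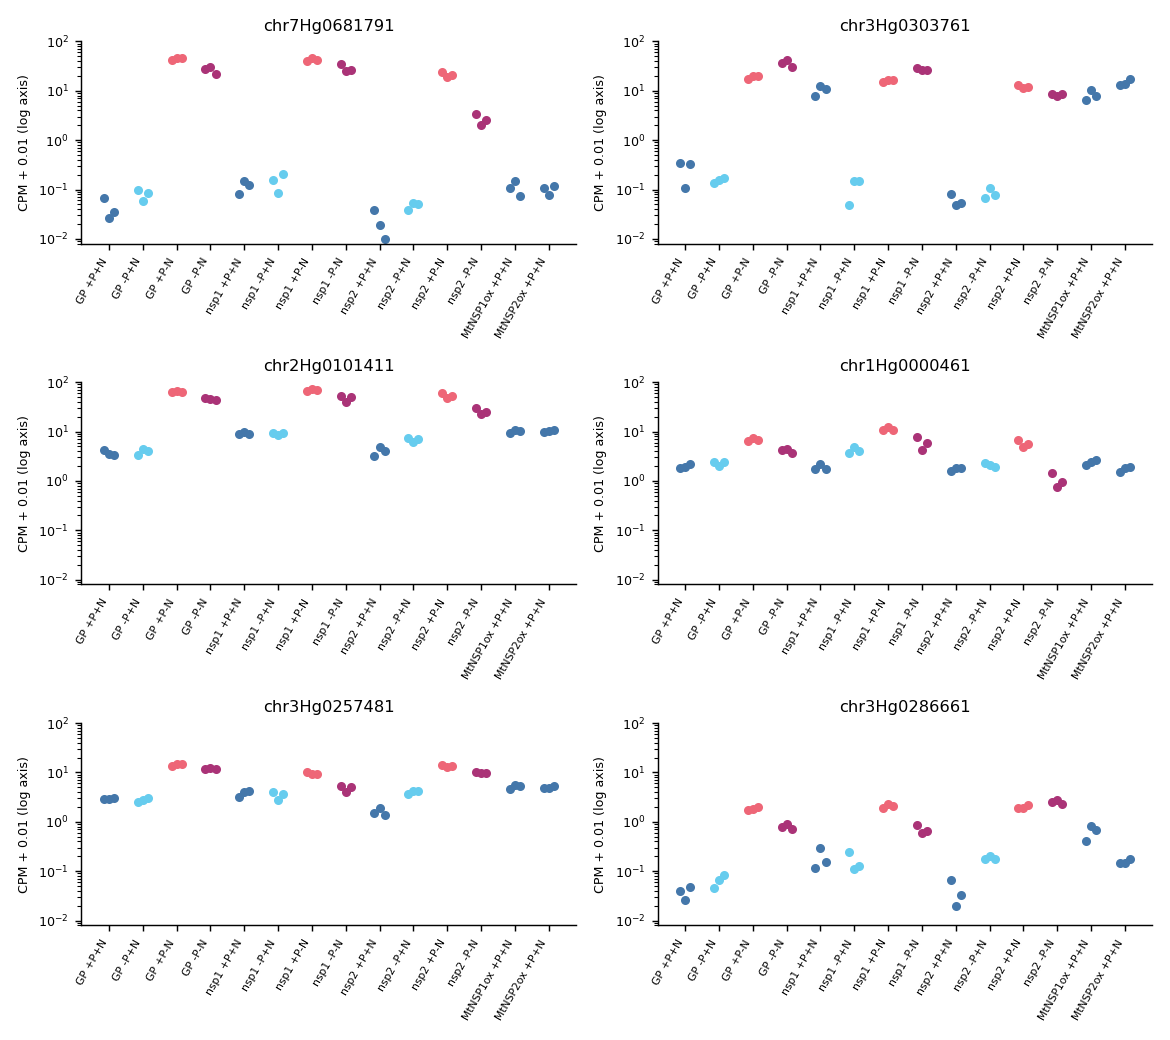
CPM plus 0.01 (log axis) of 6 members in each of the 42 libraries, by genotype and regime; points are libraries and colours are regimes. The gene chr7Hg0681791 is high in every group without nitrate and low in all others, while chr3Hg0303761 is also high at +P+N in nsp1 and both overexpression lines.

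Without both nutrients more members were below GP than above it in each mutant. At -P-N, nsp1 was below GP in 53 members and above it in 21, against 11.5% and 9.43% of genes, and nsp2 was below GP in 77 and above it in 29, against 13.5% and 9.28%. The median log2 fold change was -0.14 in nsp1 and -0.19 in nsp2, against 0.02 and 0.01 over all genes. For nsp1, leaving out GP replicate 1 gave 27 lower and 12 higher, leaving out GP replicate 2 gave 25 lower, and leaving out GP replicate 3 gave 12 higher. Without nsp1 -P-N replicate 1 the counts were 69 lower and 23 higher. Calls over all genes moved too, from 5343 lower and 4389 higher to 2956 and 2288 without GP replicate 1. Without nsp1 replicate 1 they were 7036 and 5904. Without the 10 members that passed the minimum only through GP -P-N, nsp1 was below GP in 53 and above it in 16, and nsp2 below it in 70 and above it in 29. Both comparisons share the GP libraries, so their calls are given side by side only. All members were chosen for a rise without nitrate in GP itself, which can by itself favour mutant values below GP at -P-N. Leaving out the 10 members does not undo that choice, and how far the choice set the direction of the calls was not tested.

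The gene chr7Hg0681791 had 3.34, 2 and 2.49 CPM in nsp2 at -P-N, against 27.6, 30.5 and 21.5 CPM in GP (log2 fold change -3.32 ± 0.18, adjusted p = 1.08e-06, edgeR). In nsp1 it had 35.1, 24.6 and 26.8 CPM, which overlapped GP. The gene chr5Hg0465071 was also lower in nsp2, at 0.996, 0.338 and 0.963 CPM in nsp2, 4.06, 4 and 4.24 CPM in GP and 5.7, 4.7 and 5.36 CPM in nsp1 (nsp2 against GP -2.36 ± 0.23, adjusted p = 4.48e-05, edgeR). The abundant chr2Hg0101411 was lower in nsp2 by a smaller margin, at 29.6, 22.5 and 24.7 CPM against 48.8, 46.2 and 44.5 CPM (-0.85 ± 0.11, adjusted p = 0.000363, edgeR).

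Other genes were lower in nsp1. The gene chr1Hg0070281 had 0.714, 1.41 and 1.11 CPM against 2.67, 3.15 and 2.89 CPM in GP (-1.38 ± 0.19, adjusted p = 0.00164, edgeR). The gene chr3Hg0257481 had 5.2, 3.97 and 5.04 CPM against 11.5, 12.2 and 11.7 CPM (-1.29 ± 0.11, adjusted p = 0.00013, edgeR), and its values in nsp1 at -P+N, 4.01, 2.73 and 3.71 CPM, were close to those at -P-N (0.42 ± 0.16, adjusted p = 0.0678, edgeR). That last value was past the threshold by DESeq2 (adjusted p = 0.0135) and over 15 alternatives its adjusted p ran from 0.00194 to 1. In nsp2 the gene rose from -P+N to -P-N (1.34 ± 0.07, adjusted p = 9.67e-08, edgeR).

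Higher than GP in both mutants was chr5Hg0463421, at 2.6, 2.33 and 2.36 CPM in nsp1 and 3.15, 3.15 and 2.73 CPM in nsp2 against 0.935, 0.785 and 0.797 CPM (1.55 ± 0.11 and 1.85 ± 0.10, adjusted p = 5.86e-05 and 1.57e-06, edgeR). In nsp2, chr3Hg0286661 was higher than in GP, at 2.55, 2.75 and 2.27 CPM against 0.791, 0.881 and 0.712 CPM (1.67 ± 0.11, adjusted p = 4.36e-06, edgeR), while nsp1, at 0.836, 0.595 and 0.655 CPM, overlapped GP. The most abundant member, chr3Hg0308861, was called in neither mutant, with log2 fold changes of -0.09 ± 0.18 and -0.01 ± 0.11 (adjusted p = 0.753 and 0.968, edgeR).

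**Figure D5:**
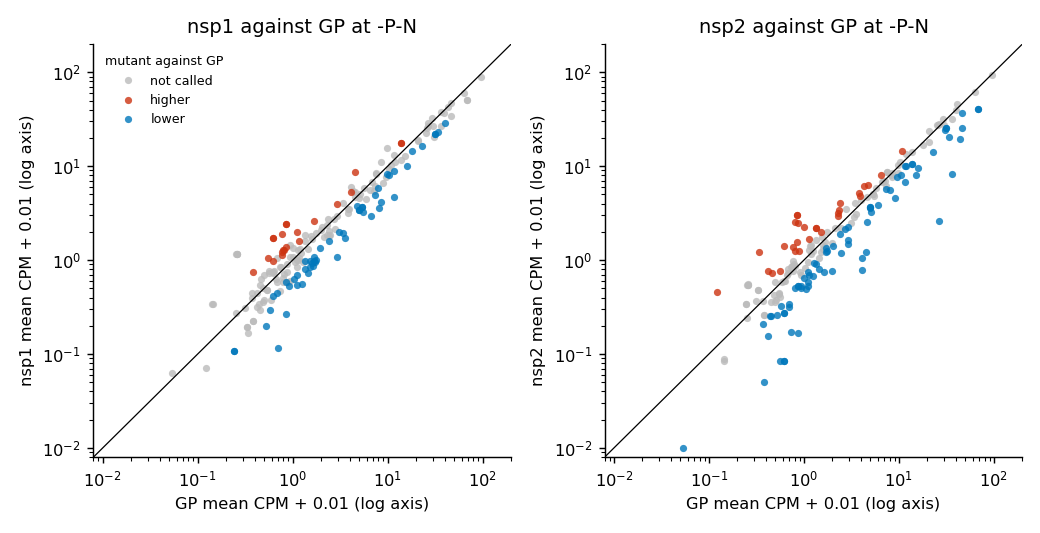
Mean CPM plus 0.01 of each of the 200 genes at -P-N in GP (x, log axis) and in nsp1 or nsp2 (y, log axis), each a mean of 3 libraries; colours give the call against GP and the line marks equal values. In nsp1 53 genes are called lower and 21 higher, and in nsp2 77 lower and 29 higher.

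The differences between responses were tested as interactions on 12 libraries. The rise without nitrate at full phosphate was larger in nsp2 than in nsp1 for 58 members and smaller for 6, against 3.92% and 2.76% of genes, with a median difference of 0.57 on the log2 scale (-0.01 over all genes). Leaving out replicate 3 of each group gave 15 and 0. Calls over all 46523 genes fell too, from 1825 larger and 1286 smaller to 309 and 210. Within nsp1 the nitrate response was larger without phosphate for 46 members and smaller for 55 (14.5% and 14.8% of genes), or 23 and 31 without replicate 3 and 31 higher without replicate 2. Within nsp2 it was larger for 11 and smaller for 80 (13.0% and 14.8%), with a median of -0.67, or 3 and 40 without replicate 3 and 7 larger without replicate 1. Over all genes, leaving out replicate 3 gave 2294 larger and 3084 smaller within nsp1, against 6733 and 6870 with all libraries. Within nsp2 it gave 2330 and 3094 over all genes, against 6061 and 6879.

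Some members lay near each other in the order of identifiers. By the chromosome in their names, 42 members (21.0%) were on 2H and 37 (18.5%) on 3H, where 15.8% and 13.7% of the genes over the minimum were, and 12 carried no chromosome. In 47 runs of members at most 5 rows apart there were 104 members, the longest run being 4, chr3Hg0308861 to chr3Hg0308891. Neither runs nor pairs in them were counted over all genes, so whether members lay closer together than other genes was not tested. Of 57 neighbouring pairs in the members' runs, 31 had a correlation over 0.99 across the 42 libraries, which share depth and regime. In all, 76 members (38.0%) had such a neighbour in the table, against 22.1% of the genes over the minimum. Among these members were chr1Hg0096141, chr2Hg0101411, chr3Hg0285481, chr3Hg0308881, chr3Hg0308891, chr5Hg0463421, chr5Hg0553321 and chr7Hg0796091. No sequences were compared, so whether such pairs share reads was not tested, and their counts are uncertain. With the other 124 members alone, 120 rose and 1 fell in nsp1 at +P-N and 121 rose and 0 fell in nsp2, and 45 were lower and 3 higher in nsp2 than in nsp1 at +P+N.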

How the data were processed

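The authors checked reads with FastQC, mapped them with STAR to the Golden Promise genome (v1r1), assigned them to genes with featureCounts and deposited the raw counts; versions, strand setting and the treatment of multiply mapped reads are not given in the sources used here. Genes with 0.0833 CPM (10 counts in the median library) in at least 3 libraries were tested, 46523 in all, and all 200 members passed. Each comparison was fitted on its own libraries with edgeR's quasi-likelihood test, with p-values adjusted over all genes tested (Benjamini-Hochberg, threshold 0.05), and the standard error is the fold change divided by the square root of F. CPM values use TMM factors of the whole table. Comparisons using GP +P+N, +P-N or -P+N were described and not tested. The members, the lists and the rule for named genes (largest L, highest CPM, largest changes per comparison at a mean of 1 CPM, members near the limits, longest runs) were chosen with earlier results of these data known. The test was tried on simulated data, in which only genes with many counts were changed and the co-varying genes were not reproduced. That trial does not show how the test behaves for members with few counts. Software was R 4.3.3, edgeR 4.0.16, DESeq2 1.42.0 and matplotlib 3.10.9.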

Additional observations from a re-analysis of the deposited data

Results flagged for a closer look

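The results here were picked out because the test of a difference between 2 responses passed its threshold (edgeR's quasi-likelihood interaction, adjusted p under 0.05). For the rise without nitrate at full phosphate, 58 members had a larger response in nsp2 than in nsp1 and 6 a smaller one (3.92% and 2.76% of genes). Of the 58, 53 were also called lower in nsp2 than in nsp1 at +P+N, whose libraries both tests share. The difference between the responses was 7.33 ± 0.30 on the log2 scale for chr3Hg0303761 (adjusted p = 5.98e-08, edgeR) and 3.81 ± 0.40 for chr3Hg0317881 (adjusted p = 4.88e-05, edgeR). Both were high in nsp1 and low in nsp2 at +P+N, so that in nsp1 chr3Hg0303761 rose by 0.56 ± 0.12 (adjusted p = 0.00136, edgeR) and in nsp2 by 7.90 ± 0.17 (adjusted p = 1.4e-08, edgeR). Smaller in nsp2 were the responses of chr2Hg0185211 (-1.67 ± 0.24, adjusted p = 0.000618, edgeR) and chr1Hg0000461 (-0.86 ± 0.19, adjusted p = 0.0124, edgeR), and neither passed without replicate 3 (adjusted p = 0.0866 and 0.317, the highest of 12 alternatives, the lowest being 4.26e-05 and 0.00283). In nsp1 chr2Hg0185211 had 0.0837, 0.149 and 0.115 CPM at +P+N and 4.23, 5.22 and 4.83 CPM at +P-N, and in nsp2 0.292, 0.311 and 0.356 CPM and 4.01, 4.11 and 4.1 CPM.

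Within nsp1 the nitrate response was larger without phosphate for 46 members and smaller for 55, against 14.5% and 14.8% of genes. It was larger by 7.36 ± 0.30 for chr3Hg0303761 (adjusted p = 1.11e-09, edgeR) and 3.71 ± 0.45 for chr3Hg0317881 (adjusted p = 3.66e-05, edgeR), and smaller for chr5Hg0465071 (-2.14 ± 0.35, adjusted p = 0.000412, edgeR). Within nsp2 it was larger for 11 members and smaller for 80, against 13.0% and 14.8% of genes. It was smaller for chr1Hg0096141 (-2.81 ± 0.31, adjusted p = 1.61e-05, edgeR), chr1Hg0000461 (-2.67 ± 0.26, adjusted p = 4.53e-06, edgeR) and chr2Hg0101411 (-1.84 ± 0.21, adjusted p = 2.02e-05, edgeR), and larger for chr3Hg0308881 (1.43 ± 0.16, adjusted p = 1.42e-05, edgeR).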

How the results depend on the processing

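Of the genes chosen, 194 were chosen again with RLE size factors, 165 to 188 without 1 GP library, 87 with a pseudocount of 1, 100 with a minimum mean of 2 CPM and 110 without the co-varying genes, so membership depends on these choices. Replicate numbers were not treated as pairs, as in no comparison did every same-numbered pair correlate over 0.1. Some single pairs did, the highest being nsp2 -P+N with nsp2 +P+N, replicate 2 (0.43). In that comparison the replicate block called 73 members higher and 14 lower, against 63 and 10 in the main fit. The replicate block gave 1 member higher (main 5) and 59 lower in nsp2 than in nsp1 at +P+N, and 6 lower (main 11) at +P-N, and kept all other counts within 1.5 times. At +P-N DESeq2 called 24 lower and 16 higher and leaving out co-varying genes gave 20 lower. One fit of all 14 groups gave 1 member lower in nsp2 at +P-N than +P+N, 17 lower in nsp2 without phosphate, 13 higher and 7 higher in nsp2 than nsp1 at +P+N and +P-N, and 8 higher and 23 lower in MtNSP2ox. A fold change over 1.5 left 26 higher in nsp1 without phosphate, 32 lower in nsp1 and 16 higher in nsp2 than GP at -P-N, and 7 higher in MtNSP2ox. Leaving out 1 library gave 0 to 2 lower in nsp2 without nitrate, 0 to 2 lower in nsp1 and 1 to 2 in nsp2 from -P+N to -P-N, 41 to 71 higher and 5 to 14 lower in nsp2 without phosphate, 12 to 27 higher and 25 to 69 lower in nsp1 than GP, 1 to 5 higher and 46 to 82 lower in nsp2 than nsp1 at +P+N, 5 to 15 and 5 to 14 at +P-N, and 7 to 22 higher in MtNSP2ox. For the interactions, leaving out 1 replicate number from all 4 groups gave 15 to 68 higher and 0 to 5 lower between mutants, 23 to 44 and 31 to 47 within nsp1, and 3 to 9 and 40 to 86 within nsp2. Calls over all genes tested changed with the library left out as well. Of 807 values of single genes under these alternatives, 796 kept their call, 5 lost it, 6 gained it and 0 changed direction with a call. The median member had under 1 CPM at +P+N in every genotype, so folds against +P+N rest on few counts.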
